A study of Homo sapiens with 6 samples.

Results

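Receptors that can carry growth signals past an inhibited BRAF kinase were measured as transcripts in A375, an established line of human melanoma cells driven by mutant BRAF. The set was chosen by gene symbol from a list of 10 cell surface receptors, of which 9 were measured among the 16934 genes of the count table: EGFR, ERBB2, ERBB3, AXL, PDGFRB, MET, IGF1R, FGFR1 and NGFR. The tenth, KIT, was not analysed here. The cells carried CRISPR-Cas9 edits made with a non-targeting control sgRNA (3 libraries) or with an sgRNA against POLK, the gene for the error-prone DNA polymerase kappa (3 libraries). All cells therefore shared the Alt-R editing procedure, and nothing in the labels says whether each group held 1 clone, 1 edited pool or separately edited cultures. The p-values accordingly set a difference only against the spread of these libraries, which may be technical spread.

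Receptor tyrosine kinases are single-pass membrane proteins that dimerise on binding a ligand, phosphorylate each other and recruit adaptor proteins, which switch on RAS and PI3K signalling. When a drug blocks mutant BRAF, a receptor that is already abundant or becomes abundant can restart this signalling, through other RAF proteins or through PI3K. EGFR, PDGFRB, MET, IGF1R and AXL are known for this in BRAF-mutant melanoma. ERBB3 has a nearly inactive kinase and signals as a partner of ERBB2. NGFR is not a kinase but a neurotrophin receptor of the tumour necrosis factor receptor family, and it marks the neural crest-like state that melanoma cells can enter under drug.

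Each library held between 42852645 and 56891905 counts. POLK itself fell from 23.3 ± 0.842 to 18.2 ± 1.003 CPM (counts per 1000000 counts; SD, n = 3), a log2 fold change of −0.36 (SE 0.05). The labelled cell type was checked against its markers: SOX10, at 1060.1 ± 12.5 and 1155 ± 28.99 CPM, and S100B and PRAME were abundant, whereas the pigment genes PMEL, MLANA, TYR, TYRP1 and DCT were all under 1 CPM on average in both groups. Markers of mast cells summed to at most 0.47 CPM in any library and those of endothelial cells to at most 6.42 CPM. Summed fibroblast markers were 9.02 to 11.3 CPM in control and 12.9 to 14.1 CPM in POLK sgRNA libraries. Most came from PDGFRA (4.57 and 2.66 CPM on average), COL1A1 (3.84 and 4.34 CPM) and LUM (0.423 and 4.50 CPM). COL3A1 was at 0.0589 and 0.0654 CPM. Summed leukocyte markers were 17.9 to 18.2 and 58.4 to 60.4 CPM, almost all from CD68 and LYZ, with PTPRC at 0.027 and 0.031 CPM. Summed epithelial markers were 105 to 107 and 156 to 163 CPM, and Schwann cell markers, a list that includes ERBB3, 456 to 485 and 659 to 671 CPM. The part of these other markers in the receptor values was not tested.

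Promoter sequences are shown for 4 receptors, 1 that rose (PDGFRB), 1 that did not pass the test (MET) and 2 that fell (EGFR and IGF1R), so that the sequence in front of each start can be read beside its transcript level. They are the 250 bases before the RefSeq start (GRCh38.p14), written 5′ to 3′ on the gene's strand: PDGFRB on chromosome 5, 150155846 to 150156095 on the minus strand, MET on chromosome 7, 116671946 to 116672195, EGFR on chromosome 7, 55018767 to 55019016, and IGF1R on chromosome 15, 98648289 to 98648538, the last 3 on the plus strand. Capitals mark matches on either strand to the GC box GGGCGG, the core of sites for SP1-type factors, or to CCAAT, the core of sites for the factor NF-Y.
PDGFRB: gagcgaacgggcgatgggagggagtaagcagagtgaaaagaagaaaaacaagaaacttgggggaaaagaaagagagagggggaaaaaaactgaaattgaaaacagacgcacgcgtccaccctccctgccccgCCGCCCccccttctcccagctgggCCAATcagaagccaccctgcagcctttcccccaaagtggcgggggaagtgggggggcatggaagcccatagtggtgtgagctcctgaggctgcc
MET: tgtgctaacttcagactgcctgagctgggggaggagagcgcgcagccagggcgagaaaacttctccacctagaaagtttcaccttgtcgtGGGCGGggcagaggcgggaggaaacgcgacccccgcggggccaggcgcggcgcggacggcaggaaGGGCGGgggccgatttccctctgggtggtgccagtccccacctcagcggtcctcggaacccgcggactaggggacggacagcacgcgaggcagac
EGFR: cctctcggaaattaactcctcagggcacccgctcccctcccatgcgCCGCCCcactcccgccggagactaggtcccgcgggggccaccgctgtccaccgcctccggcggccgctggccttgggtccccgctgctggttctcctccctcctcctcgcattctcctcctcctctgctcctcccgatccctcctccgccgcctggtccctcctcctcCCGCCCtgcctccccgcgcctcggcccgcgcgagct
IGF1R: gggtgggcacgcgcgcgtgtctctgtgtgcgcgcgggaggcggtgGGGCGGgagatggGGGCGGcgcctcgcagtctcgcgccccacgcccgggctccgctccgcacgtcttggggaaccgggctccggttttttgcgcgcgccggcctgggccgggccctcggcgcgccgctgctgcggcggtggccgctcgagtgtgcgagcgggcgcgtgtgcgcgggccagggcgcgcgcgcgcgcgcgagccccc
These letters are given as a description, and a match is not a shown binding site. For a gene with several RefSeq starts among the windows, only the most upstream was used. IGF1R, EGFR and MET each held 2 GC boxes and no CCAAT, and PDGFRB held 1 of each. The 6 receptor windows examined were those of AXL, EGFR, ERBB2, IGF1R, MET and PDGFRB, and none was examined for NGFR, ERBB3 or FGFR1. A GC box stood in 5 of the 6 and in 42.6% of all 35116 windows of that length. CCAAT stood in 2 of the 6 and in 32% of all. The IGF1R window was 81.2% G and C and the EGFR window 73.6%, against a median of 58% over all windows. The AP-1 site TGANTCA matched in the ERBB2 window alone among the 6, and in 6.57% of all windows. The MITF E-box CACGTG, the SOX core ACAAAG, the forkhead core GTAAACA and the TEAD core GGAATG, each searched on both strands, matched in none of the 6, and in 6.34%, 13.7%, 2.98% and 11.9% of all windows.

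With the POLK sgRNA, 4 of the 9 receptors were higher (NGFR, ERBB3, PDGFRB and AXL), 4 were lower (IGF1R, FGFR1, EGFR and ERBB2) and MET did not pass the test. A gene was called when its p from edgeR's quasi-likelihood F test, adjusted by Benjamini-Hochberg over the 13930 genes tested, was under 0.05. In that test 64.3% of all genes passed, 32.8% higher and 31.6% lower, so 8 of 9 receptors passing is to be read against a background in which most genes pass. In 7 of the 9 the groups did not overlap, as in 67.7% of all genes tested. The median log2 fold change was 0.03 over the receptors and 0.01 over all genes tested. A stricter reading, an adjusted p under 0.05 with a fold of at least 2, was met by NGFR alone of the receptors and by 6.84% of all genes. In these bulk libraries a lower level can mean fewer cells that express the gene or less RNA per cell, and these cannot be told apart.

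**Figure D1:**
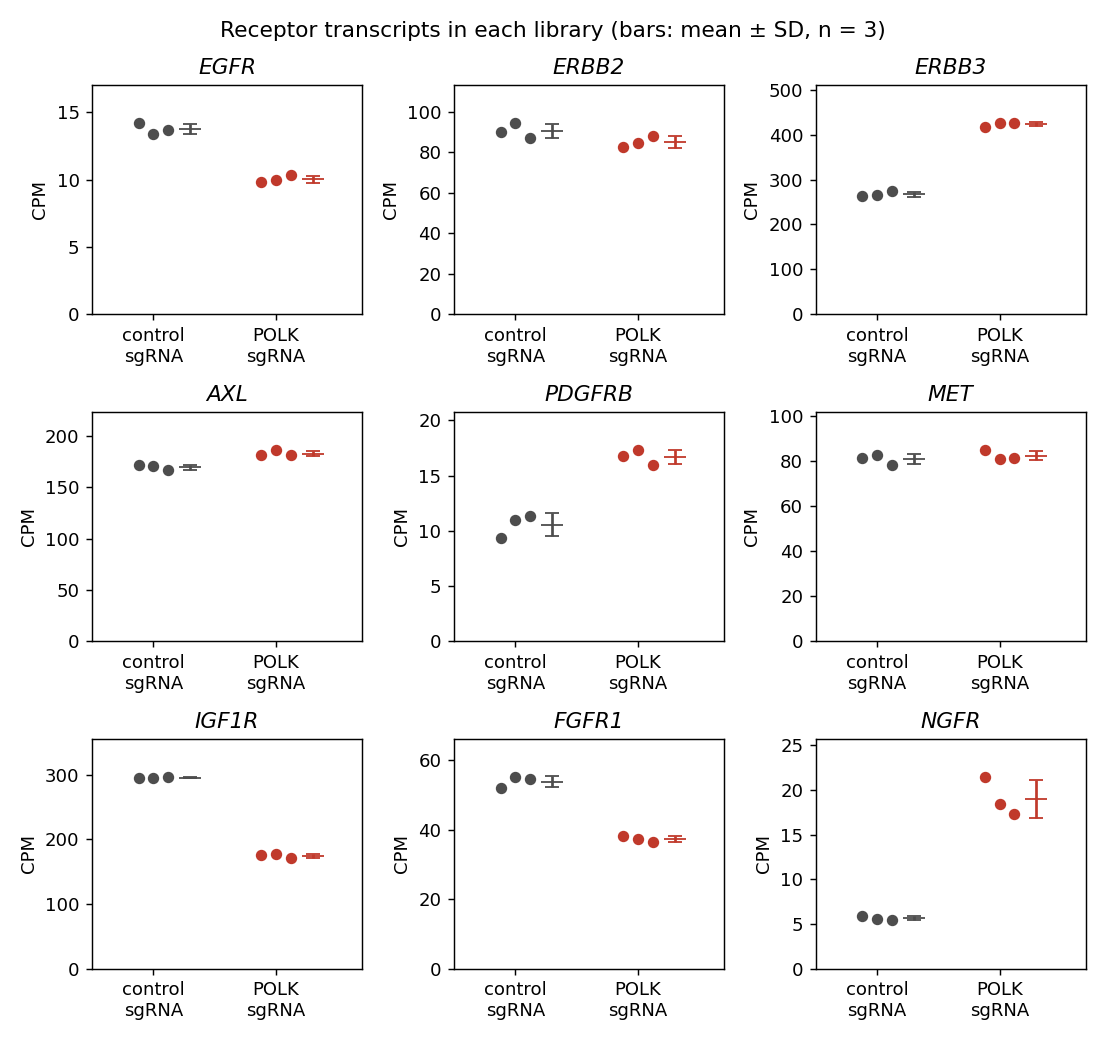
Transcript level (CPM, linear axis from 0) of the 9 receptors in each library, control sgRNA in grey and POLK sgRNA in red, with the mean and SD (n = 3) beside the points. The groups do not overlap for any receptor except ERBB2 and MET, and the widest gap in fold is that of NGFR, at 5.46 to 5.86 against 17.2 to 21.4 CPM.

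NGFR changed most. The control libraries had 5.86, 5.60 and 5.46 CPM (251, 306 and 262 counts) and the POLK sgRNA libraries 21.4, 18.4 and 17.2 CPM (1222, 860 and 845 counts). Every POLK sgRNA library lay above every control library and the first of them was the highest. The log2 fold change was 1.76 (SE 0.08), a 3.39-fold rise with an adjusted p of 6.4e-16 by edgeR, and 1.39% of all genes tested had a higher one. The gene (ENSG00000064300, chromosome 17, 49495293 to 49515017 on the plus strand, GRCh38) lies among genes that moved in both directions: of the 40 nearest tested genes, 20 on each side with a mean of at least 1 CPM, 11 rose and 17 fell, and the median of their log2 fold changes was −0.03. NGFR ranked 2nd from the top of the 41 genes of its window. Its immediate neighbours PHB and SPOP had log2 fold changes of −0.11 and −0.01.

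Of 16 tested genes whose proteins act with NGFR, 9 fell, 3 rose and 4 did not pass, so 75% passed against 64.3% of all genes. Their median log2 fold change was −0.13, against 0.01 over all genes, and the list was not tested against other genes. LINGO1, which forms a complex with NGFR and the Nogo receptor at the neuron surface, fell from 5.27 ± 0.0692 to 1.99 ± 0.265 CPM (SD, n = 3). SORCS2, a sortilin-family co-receptor for pro-neurotrophins, fell from 5.87 ± 0.337 to 1.59 ± 0.08295 CPM. The neurotrophin receptor kinase gene NTRK3 fell from 1.75 ± 0.1097 to 0.171 ± 0.0643 CPM. Among those that rose was MAGED1, a cytoplasmic binding partner of NGFR, with a log2 fold change of 0.28. SORCS1, of the same sortilin family as SORCS2, rose from 55.5 ± 2.64 to 68.8 ± 1.29 CPM. TRAF4 and ARHGDIA, cytoplasmic proteins that bind NGFR, had log2 fold changes of −0.33 and −0.15 and passed as lower. The ligand gene BDNF, at 3.24 ± 0.398 and 2.98 ± 0.154 CPM, did not pass (adjusted p = 0.29 by edgeR).

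ERBB3, an ERBB family member that binds neuregulins, was among the most abundant receptors and rose further. Control libraries had 263, 266 and 274 CPM and POLK sgRNA libraries 418, 425 and 426 CPM. The groups lay far apart relative to their spread, with a log2 fold change of 0.66 (SE 0.02) and an adjusted p of 6.8e-23 by edgeR. The gene (ENSG00000065361) lies at 56076799 to 56103505 on the plus strand of chromosome 12. There all 40 neighbouring genes rose (median log2 fold change 0.61), and ERBB3 ranked 15th from the top of the 41 genes of its window. Relative to those neighbours its log2 fold change was 0.05. Of the 2 nearest tested genes on each side, RPS26 and RPL41, which encode ribosomal proteins, rose by 0.63 and 0.60, PA2G4 by 0.46 and IKZF4 by 0.28. Over chromosome 12 as a whole, 77.4% of 738 tested genes were higher, with a median log2 fold change of 0.50. Not every part of that chromosome was raised. Of the 36 neighbours of TEAD4, 12 rose and 10 fell (median 0.0006). Around VWF, 11 of 40 neighbours rose and 15 fell (median −0.04). An effect on ERBB3 by itself and a change shared by its chromosomal surroundings cannot be told apart from these transcript levels.

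ERBB2, a signalling partner of ERBB3, differed little between the groups. It had 90.1, 94.3 and 87.1 CPM in control and 82.5, 84.7 and 88.1 CPM in POLK sgRNA libraries. The groups overlapped, since the third POLK sgRNA library lay above the third control library. The log2 fold change was −0.09 (SE 0.03; adjusted p = 0.011 by edgeR). The call was lost without control library 2 (adjusted p = 0.13) and without POLK sgRNA library 1 (adjusted p = 0.087).

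EGFR, the receptor for epidermal growth factor and TGF-alpha, was the least abundant receptor per kilobase of exon, and it fell. Its values were 14.2, 13.4 and 13.7 CPM in control and 9.84, 9.94 and 10.3 CPM in POLK sgRNA libraries. The groups did not overlap, and the log2 fold change was −0.45 (SE 0.06; adjusted p = 2.1e-08 by edgeR). EGFR (ENSG00000146648, chromosome 7, 55019021 to 55211628 on the plus strand) fell against neighbours with a median log2 fold change of 0.06, and 2 of those 40 genes had a lower one. An antisense gene lies within EGFR, and counts without strand cannot separate them.

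The balance within the ERBB family moved towards ERBB3. ERBB3 outnumbered ERBB2 per kilobase of exon by 3.38 ± 0.192 to 1 with the control sgRNA and 5.68 ± 0.143 to 1 in POLK sgRNA libraries (SD, n = 3). It outnumbered EGFR by 26.98 ± 1.12 and 58.4 ± 1.17 to 1. Of the summed EGFR, ERBB2 and ERBB3 level per kilobase, ERBB3 made up 75.01% ± 0.965 and 83.8% ± 0.337, and EGFR 2.78% ± 0.108 and 1.43% ± 0.0237. These ratios rest on the same counts as the fold changes and depend on the annotated exon lengths. The rise of ERBB3 in them was close to that of its chromosomal neighbours (log2 fold change 0.66 against a median of 0.61).

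Ligands of the ERBB family were dominated by TGFA, which binds EGFR. It fell from 642 ± 6.02 to 511 ± 12.6 CPM (log2 fold change −0.33), among neighbours with a median of −0.28. HBEGF, another EGFR ligand, fell from 6.44 ± 0.2496 to 5.099 ± 0.483 CPM. The EGFR ligand genes EGF, BTC and AREG rose but stayed low, EGF from 0.804 to 1.59 CPM, BTC from 0.218 to 0.513 CPM and AREG from 1.18 to 1.69 CPM. NRG1, a ligand of ERBB3, fell from 0.422 ± 0.121 to 0.0914 ± 0.0294 CPM. NRG3, a neuregulin that binds ERBB4, had 58 counts over the control libraries and none over the POLK sgRNA libraries, at least 20.3-fold lower against a floor of 3 counts over the group, which covers counting error only. NRG2, at 9.7 and 10.04 CPM, did not pass.

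Inhibitors of the ERBB receptors moved in both directions. ERRFI1, which binds the EGFR kinase and blocks it, fell from 417 ± 6.604 to 295 ± 10.8 CPM. LRIG1, a membrane protein that promotes degradation of ERBB receptors, fell from 11.1 ± 0.206 to 9.07 ± 0.4404 CPM. RNF41, the ubiquitin ligase that degrades ERBB3, rose from 61.7 ± 1.61 to 95.4 ± 1.64 CPM. It too lies on chromosome 12, among neighbours with a median log2 fold change of 0.60 against its own 0.63.

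PDGFRB, the receptor for PDGF-BB, rose from a low level. It had 9.36, 11.0 and 11.4 CPM in control and 16.8, 17.3 and 16.0 CPM in POLK sgRNA libraries. The first control library was the lowest of its group, and the groups did not overlap. The log2 fold change was 0.65 (SE 0.06), a 1.57-fold rise with an adjusted p of 4.7e-11 by edgeR. PDGFRB (ENSG00000113721, chromosome 5, 150113837 to 150155872 on the minus strand) rose against a neighbour median of 0.02, although the nearby gene CD74, for the invariant chain of HLA class II, rose by 0.69. Its ligand gene PDGFB fell from 1.06 ± 0.0996 to 0.708 ± 0.131 CPM, and PDGFD, at 5.61 and 5.47 CPM, did not pass. The sister receptor PDGFRA, which is also a fibroblast marker, fell from 4.57 ± 0.101 to 2.66 ± 0.223 CPM. Among fibroblast markers, LUM and DCN, both on chromosome 12, rose to 4.50 and 1.11 CPM and COL1A2 fell. The log2 fold changes of LUM and DCN were 3.40 and 3.61. The neighbours of LUM had a median of 0.62, and DCN was not compared with its neighbours.

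AXL, the receptor for GAS6 and a marker of the drug-tolerant invasive state, rose slightly. Its values were 171, 170 and 167 CPM in control and 181, 186 and 181 CPM in POLK sgRNA libraries. Although the groups did not overlap, the rise was 1.08-fold (log2 fold change 0.11, SE 0.02; adjusted p = 0.00018 by edgeR), and 67.2% of all genes tested had a larger change in either direction. Its neighbours (chromosome 19, around 41219203 to 41261766) had a median of 0.04, so AXL stood 0.07 above them. The ligand gene GAS6 fell from 21.5 ± 0.103 to 19.02 ± 1.45 CPM, PROS1, which encodes protein S, was at 15.1 and 15.6 CPM and did not pass, and the related receptor TYRO3 rose from 74.6 ± 1.04 to 83.5 ± 2.44 CPM.

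MITF, the master regulator of melanocytes, is often low in melanoma cells with high AXL. MITF rose from 28.3 ± 0.0428 to 32.9 ± 1.23 CPM, so the AXL to MITF ratio per kilobase was 8.35 ± 0.108 in control and 7.75 ± 0.386 in POLK sgRNA libraries (SD, n = 3). The 3 control ratios were 8.44, 8.38 and 8.23 and the POLK sgRNA ratios 7.71, 8.16 and 7.39. The NGFR to MITF ratio went the other way, from 0.345 ± 0.0121 to 1.002 ± 0.129. For a single ratio of 3 against 3 libraries the smallest two-sided p of an exact permutation test is 0.10, so no test of these ratios was made.

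MET, the receptor for hepatocyte growth factor, was the receptor that did not pass. It had 81.4, 82.5 and 78.3 CPM in control and 84.6, 80.9 and 81.2 CPM in POLK sgRNA libraries, and the groups overlapped. The log2 fold change was 0.03 (SE 0.03; adjusted p = 0.43 by edgeR). The genes around MET (chromosome 7, 116672390 to 116798386) were lower, with a median of −0.09, and 21 of 40 fell. Its ligand gene HGF rose from 0.702 ± 0.018998 to 2.05 ± 0.188 CPM, a log2 fold change of 1.54 (SE 0.16).

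**Figure D2:**
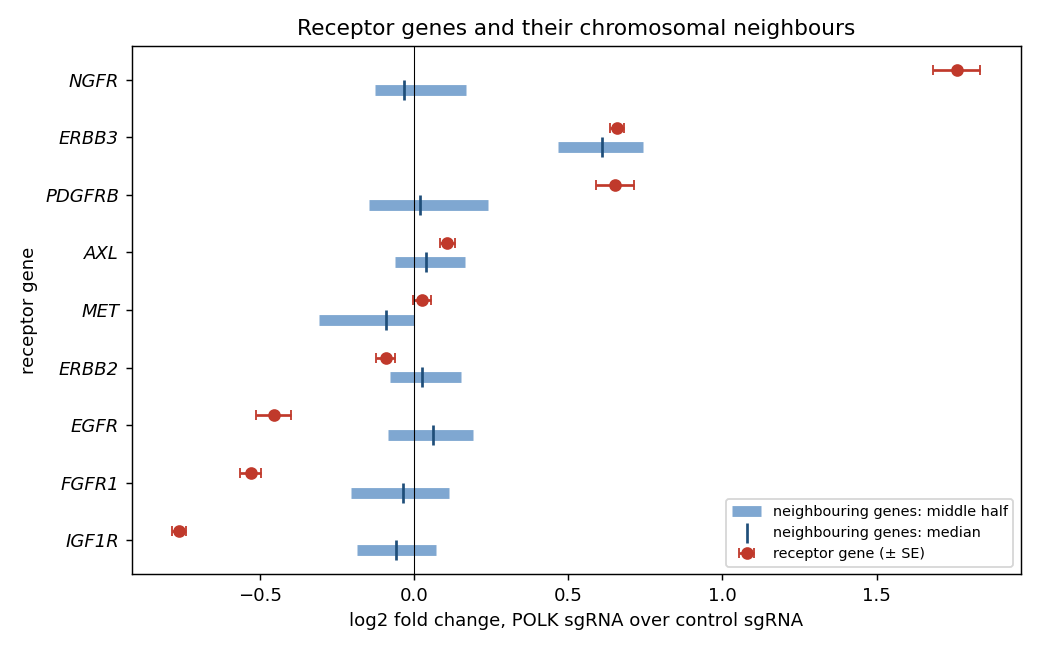
Log2 fold change (POLK sgRNA over control sgRNA) of each receptor gene with its SE, above the median and interquartile range of its neighbouring tested genes on the chromosome (40 genes, 36 for IGF1R). ERBB3, at 0.66, sits within the interquartile range of its neighbours (median 0.61), as does AXL, whereas the other 7 receptors lie outside the interquartile range of theirs, ERBB2 and MET by little.

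IGF1R, the receptor for insulin-like growth factors, fell most of the 9 receptors, from a high level and with tight replicates. The control libraries had 294, 295 and 295 CPM and the POLK sgRNA libraries 175, 177 and 171 CPM. Each POLK sgRNA library therefore lay well under each control library, with a log2 fold change of −0.76 (SE 0.02), 59.0% of the control level and an adjusted p of 2.1e-24 by edgeR. IGF1R (ENSG00000140443, chromosome 15, 98648539 to 98964530 on the plus strand) lies near the end of its chromosome, where 36 neighbours had a median of −0.06. Of those, 14 fell and 4 rose.

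Secreted regulators of IGF signalling also changed. IGF binding proteins can hold IGF1 and IGF2 outside the cell, and 4 listed genes of that name fell at least 2-fold. IGFBP5 fell from 111 ± 4.38 to 40.9 ± 0.497 CPM, IGFBP2, its neighbour on chromosome 2, from 222 ± 6.98 to 86.1 ± 5.998 CPM, IGFBP3 from 54.2 ± 0.409 to 22.7 ± 0.531 CPM and IGFBP7 from 17.1 ± 0.519 to 8.44 ± 0.201 CPM. IGFBP6 rose from 51.6 ± 2.34 to 70.4 ± 1.87 CPM, within the raised stretch of chromosome 12 (neighbour median 0.57), and IGFBP4 rose by 0.13 on the log2 scale. The list as a whole, with the scavenger receptor IGF2R and the proteases, had 6 of 12 tested genes lower and 4 higher, so 83.3% passed against 64.3% of all genes. PAPPA, a protease that frees IGF from IGFBP4, fell from 1.897 ± 0.331 to 1.08 ± 0.0564 CPM, while STC2, which inhibits that protease, rose from 14.01 ± 1.26 to 17.998 ± 0.997 CPM. IGF1 and IGF2 had at most 14 counts over a group and were not tested. IRS1, the docking protein that carries the IGF1R signal to PI3K, fell from 38.7 ± 0.8602 to 25.1 ± 1.03 CPM, and IRS2, at 243 and 260 CPM, rose by 0.10 on the log2 scale (adjusted p = 0.047 by edgeR). INSR, the insulin receptor gene and closest relative of IGF1R, was at 29.7 and 29.3 CPM and did not pass.

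FGFR1, a receptor for fibroblast growth factors, fell as well. It had 51.9, 55.0 and 54.6 CPM in control and 38.2, 37.2 and 36.6 CPM in POLK sgRNA libraries, with no overlap. The log2 fold change was −0.53 (SE 0.03; adjusted p = 3.6e-15 by edgeR) against a neighbour median of −0.04 on chromosome 8. Its ligand gene FGF2 fell from 21.4 ± 0.452 to 19.03 ± 1.09 CPM and FGF1 rose from 2.69 ± 0.0488 to 5.998 ± 0.537 CPM. FRS2, the docking protein of FGF receptors, rose from 18.02 ± 0.565 to 24.7 ± 0.3797 CPM on chromosome 12, where its neighbours had a median of 0.60 against its own 0.45. Among the other FGF receptors, FGFR4 rose from 31.1 to 35.0 CPM, FGFR2 fell from 0.603 to 0.153 CPM, and FGFR3 did not pass at 17.6 and 17.02 CPM.

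**Figure D3:**
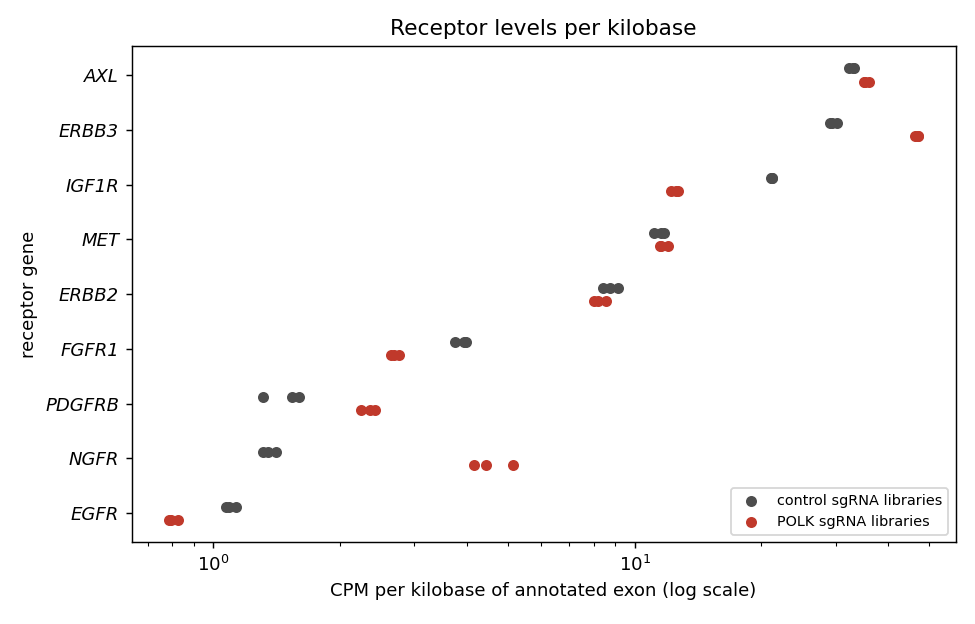
Level of each receptor per kilobase of annotated exon (CPM per kilobase, log axis) in each control (grey) and POLK sgRNA (red) library. AXL and ERBB3 lead in both groups and EGFR is lowest, while NGFR moves from 1.31 to 1.41 up to 4.16 to 5.15 CPM per kilobase.

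To order the receptors by level, CPM was divided by the length of all annotated exons of each gene. In control cells AXL led with 32.9 ± 0.471 CPM per kilobase, followed by ERBB3 with 29.6 ± 0.617, IGF1R with 21.2 ± 0.0373, MET with 11.5 ± 0.315, ERBB2 with 8.77 ± 0.353 and FGFR1 with 3.89 ± 0.121 (SD, n = 3). PDGFRB (1.48 ± 0.1502) and NGFR (1.36 ± 0.0491) came next with overlapping libraries, and EGFR was last at 1.099 ± 0.0314. With the POLK sgRNA, ERBB3 led with 46.8 ± 0.477 CPM per kilobase and AXL was second with 35.5 ± 0.534. IGF1R, at 12.5 ± 0.222, stood close above MET, at 11.7 ± 0.291. By this length NGFR moved up to 4.58 ± 0.516, above FGFR1 (2.697 ± 0.06002) and PDGFRB (2.34 ± 0.0921). No 2 neighbours in that order had overlapping libraries. Over the 8 receptor kinases the summed level rose from 110.4 ± 0.591 to 121 ± 0.821 CPM per kilobase. ERBB3 alone gained more than that sum did, so the other kinases together fell. The genes around ERBB3 rose to a similar extent as ERBB3. The share of ERBB3 was 26.8% ± 0.612 in control and 38.8% ± 0.279 in POLK sgRNA libraries. That of IGF1R was 19.2% ± 0.104 and 10.4% ± 0.162, and that of AXL 29.8% ± 0.421 and 29.4% ± 0.251. The order depends on the length used: divided by the longest protein-coding transcript instead, ERBB3 led AXL in control cells too (45.2 against 35.8) and ERBB2 stood above MET in both groups (18.9 against 12.2 in control cells). With that length, in POLK sgRNA libraries NGFR stayed under FGFR1 (5.56 against 6.17) and ERBB2 stood above IGF1R (17.8 against 14.2).

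**Figure D4:**
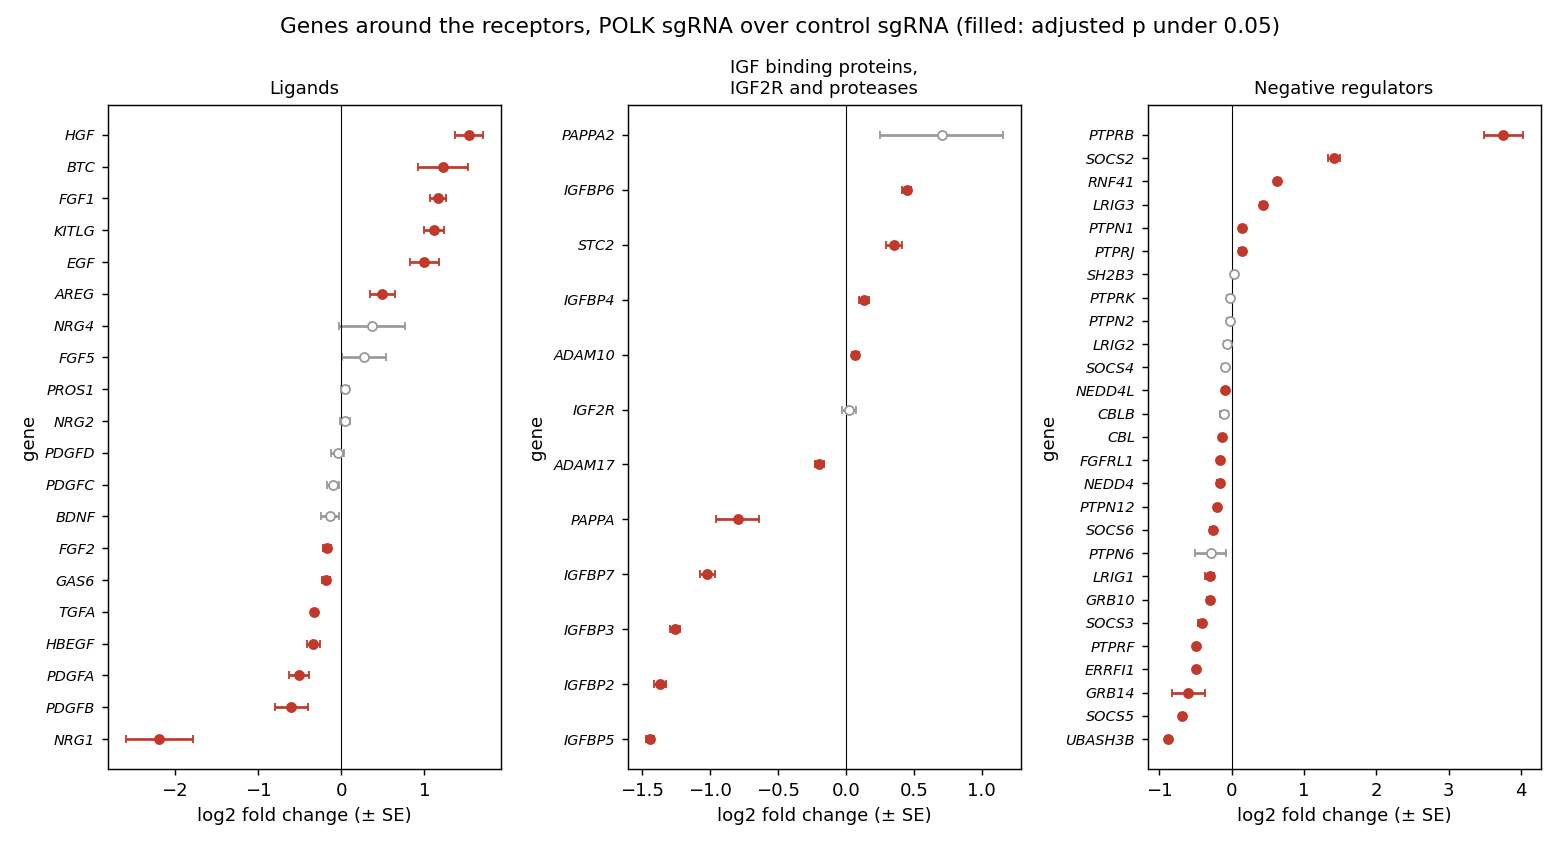
Log2 fold change (POLK sgRNA over control sgRNA) with SE of tested ligands of the receptors (left), IGF binding proteins, IGF2R and related proteases (middle) and negative regulators of receptors (right), filled red where the adjusted p was under 0.05; NRG3, with no count in the POLK sgRNA libraries, is left out. Of the IGF binding proteins, IGFBP2, IGFBP3, IGFBP5 and IGFBP7 lie at or under −1.02, and PTPRB has the highest value among the negative regulators, 3.76.

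Downstream of the receptors, 26 adaptor and docking genes were tested. Of these 13 fell, 6 rose and 7 did not pass (73.1% passed, against 64.3% of all genes), with a median log2 fold change of −0.11 against 0.01 over all genes. GRB2 and SHC1, adaptors that link phosphorylated receptors to RAS, fell from 203 ± 4.75 to 180.1 ± 3.83 and from 412 ± 10.9 to 351 ± 5.24 CPM. The neuronal SHC gene SHC2 fell from 3.99 ± 0.5498 to 1.07 ± 0.158 CPM, and VAV3, a guanine nucleotide exchange factor gene, from 3.76 ± 0.336 to 0.589 ± 0.0862 CPM. IRS4, a docking protein gene of the IRS family, fell from 0.981 ± 0.178 to 0.155 ± 0.0473 CPM. PTPN11, the phosphatase SHP2 that most of these receptors need to activate RAS, rose from 216 ± 3.92 to 302 ± 3.03 CPM on chromosome 12, by 0.48 on the log2 scale where its neighbours had a median of 0.65.

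Negative regulators of receptors moved in both directions. Of 27 tested, 14 fell, 6 rose and 7 did not pass (74.1% passed, against 64.3% of all genes), with a median log2 fold change of −0.14. UBASH3B, a phosphatase that acts on receptor tyrosine kinases, fell from 202 ± 1.33 to 109 ± 4.91 CPM. PTPRF, a receptor-type phosphatase gene, fell from 594 ± 10.6 to 423 ± 6.7004 CPM. SOCS5, an adaptor that promotes EGFR degradation, fell from 57.04 ± 1.101 to 35.5 ± 0.814 CPM. Its log2 fold change was −0.68, among chromosome 2 neighbours with a median of −0.22. Of the 6 that rose, 4 lie on chromosome 12: RNF41, LRIG3, PTPRB and SOCS2. The other 2 tested there did not pass: PTPN6, at a log2 fold change of −0.29, and SH2B3, at 0.03 among 40 neighbours that all rose (median 0.61). PTPN6 was not compared with its neighbours, so whether it lies in a raised part of the chromosome was not tested. PTPRB, a phosphatase gene of endothelial cells, rose from 0.1305 ± 0.0934 to 1.89 ± 0.165 CPM, and SOCS2, an inhibitor of cytokine and growth hormone signalling, from 5.13 ± 0.505 to 13.8 ± 1.49 CPM. KITLG, the ligand of KIT, lies on chromosome 12 as well and rose from 1.84 ± 0.386 to 4.02 ± 0.352 CPM. These last 3 rose by 3.76, 1.41 and 1.11 on the log2 scale, where their neighbours had medians of 0.57, 0.61 and 0.65.

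Transcription factors that set melanoma cell states were given for context, since several are known to bind receptor genes. Of 26 tested, 14 fell, 6 rose and 6 did not pass (76.9% passed, against 64.3% of all genes), with a median log2 fold change of −0.13. FOXD3, a neural crest forkhead factor known to activate ERBB3 in melanoma cells, rose from 16.1 ± 0.841 to 44.2 ± 3.02 CPM. SOX10, whose loss in melanoma cells is known to raise EGFR, rose by 0.12 on the log2 scale. SOX9 fell from 1.63 ± 0.222 to 0.121 ± 0.0471 CPM. The AP-1 genes FOSL2, FOSL1 and JUN fell, with log2 fold changes of −1.01, −0.35 and −0.47, as did SMAD3, of the TGF-beta pathway, with −0.40. FOSL2 lies on chromosome 2 among neighbours with a median of −0.19. The effector genes of the Hippo pathway, YAP1 and WWTR1, differed little, with log2 fold changes of −0.14 (passed) and 0.01 (did not pass). Whether any of these factors bears on a receptor was not tested.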

How the data were processed

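Libraries were grouped by the sgRNA in the labels. Per the labels' protocols, the mRNA kit was TruSeq RNA V2, an unstranded kit. The submitters' processing notes name FastQC, Trimmomatic, STAR and DESeq2, with the build GRCh38. The authors deposited raw counts per gene, not normalized. Their counting tool, annotation and versions were not given in the sources used here. Receptors and lists were chosen with earlier results of these data known.

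In R 4.3.3, edgeR's filterByExpr (minimum count 10, minimum total 15) kept 13930 genes. Libraries were scaled by TMM (factors 0.991 to 1.007). They were compared by edgeR 4.0.16's robust quasi-likelihood F test, two-sided, with Benjamini-Hochberg adjustment and a threshold of 0.05. That procedure was also run on simulated data in which far fewer genes changed than here, so the run does not cover this setting. SE is the size of the log2 fold change divided by the root of F. Positions and exon lengths came from GENCODE 29 (GRCh38). Neighbours were the 20 nearest tested genes on each side with a mean of at least 1 CPM. Beside the receptors, the rule named the 4 genes of each list with the smallest p, those changed at least 2-fold, and any ligand, partner or regulator of a receptor. JUN, YAP1, WWTR1, GRB2, SHC1, IRS2 and other genes outside it were chosen after their values were seen. Alternatives were DESeq2's size factors, library size without scaling, no filter, a mean CPM of 1, DESeq2 1.42.0, limma-voom (3.58.1), a replicate block, each library left out, and subtraction of neighbour medians.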

Additional observations from a re-analysis of the deposited data

How the results depend on the processing

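The 9 receptors kept their direction in all 13 refits, and each except ERBB2 its side of the threshold. On leaving out each library in turn, the log2 fold change of ERBB2 ranged from −0.12 to −0.062 (adjusted p 0.0015 to 0.13), that of NGFR from 1.66 to 1.83 and that of PDGFRB from 0.57 to 0.70. Subtracting the median of neighbouring genes gave log2 fold changes of −0.52 for EGFR, 0.049 for ERBB3, 0.069 for AXL, 0.12 for MET and −0.70 for IGF1R. Requiring a fold of at least 2, chosen after seeing the data, left 506 genes higher and 447 lower. Library size alone gave 4877 higher and 4075 lower genes against 4566 and 4396 with TMM. Libraries with the same number shared only that number: their deviations from group means correlated at −0.04, −0.01 and −0.05 across genes, and no library correlated best with its own number. With the replicate number as a block, 4483 genes were higher and 4290 lower, 4 receptors higher and 4 lower, and no receptor changed its call. Of 364 refitted counts over gene lists, 13 moved by more than 1.5 times, all of them small counts and most under the filter on mean CPM. Receptor counts of at least 251 in each library mean that depth limits mainly the low ligand genes.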

Other observations

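Receptor tyrosine kinases outside the set moved in both directions. Of 36 tested, 13 fell, 10 rose and 13 did not pass (63.9% passed, close to the 64.3% of all genes), with a median log2 fold change of −0.09. EPHA3, an ephrin receptor gene, rose from 64.2 ± 1.08 to 148 ± 2.56 CPM (SD, n = 3) and FLT1, a receptor for vascular endothelial growth factor, from 15.7 ± 0.755 to 34.7 ± 1.51 CPM. EPHB3 fell from 49.1 ± 0.665 to 18.9 ± 0.9997 CPM in a stretch of chromosome 3 whose neighbouring genes had a median log2 fold change of −0.43, and EPHA2 fell from 262 ± 3.2001 to 192 ± 2.98 CPM. ROR2, a receptor for WNT5A, fell from 1.28 ± 0.113 to 0.564 ± 0.216 CPM, and TIE1, an endothelial receptor gene, rose from 0.101 ± 0.0292 to 0.495 ± 0.0405 CPM.

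Across the 6 libraries, the genes whose log2 CPM (pseudocount 0.1) followed that of NGFR most closely were RPS6KC1, EIF1 and FAM122B, each with a Pearson correlation above 0.99. Since 498 of 12343 genes exceeded that value and the libraries form 2 groups, this is a description of the group difference and singles out no gene.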
